A study of Mus musculus with 5 samples.

Results

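Transcripts that identify thymocytes and T cells were followed in RNA from sorted dendritic cells of the mouse thymus. The set held 33 genes, matched by symbol among 18051 rows of the count table, and all 33 passed the filter on low counts. Mice irradiated over the whole body (total body irradiation, TBI) and harvested 4 days later gave 3 libraries, and untreated mice gave 2. All were C57BL/6J mice aged 6 to 8 weeks, and the labels name no transgene or deletion in either group. Pooled thymi had been broken up with DNase and collagenase, and dendritic cells were sorted on CD11c, CD45 and an MHC marker that the labels write as MHC11, with no T cell marker named in the gate. Whether each replicate is a pool of its own is not stated in the labels, so p-values measure the spread between these libraries, which may be technical. The radiation dose is not given in the sources used here. The comparison asks how the transcripts of thymic dendritic cells differed after damage, and within it the genes of double-positive thymocytes are set beside those of mature T cells.

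T cells arise in the thymus from precursors that first carry neither CD4 nor CD8. These precursors rearrange the T cell receptor β gene and test it with the pre-T cell receptor. They then become double-positive for CD4 and CD8, and at this stage rearrange the receptor α gene with the RAG recombinase. Survivors of selection mature into CD4 or CD8 single-positive cells, which keep the CD3 complex and the signalling enzymes but switch the recombinase off. Double-positive thymocytes are the most numerous cells of a healthy thymus and are known as sensitive to radiation. Several of the genes are also known from other cells inside or near the sort gate. Examples are Cd2 and Cd96 from natural killer cells, Thy1 and Gata3 from innate lymphoid cells, and Cd5 from some dendritic cells. Rag1 and Dntt are known from plasmacytoid dendritic cells, and these examples are not a full list.

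The libraries held 7549053 to 8428589 counts in the TBI group and 7227000 and 7346330 in the untreated group. Across both groups 1 count equalled 0.119 to 0.138 CPM (counts per 1000000 counts of the library). That range is before the scaling between libraries that the CPM values given here carry. The chi-square per gene between 2 libraries, which is 1 for counting error alone, was 9.80 to 27.6 among TBI libraries and 4.89 between untreated libraries, against 115.1 to 129 between groups. TBI replicate 1 was the farther of the TBI libraries from the other two (23.1 and 27.6). Of 7 genes of the dendritic cell core, 6 were lower after TBI and Cd74 did not pass the test. Flt3, a cytokine receptor of dendritic cells, was at 34.7, 41.5 and 34.5 CPM in TBI libraries, against 312 and 343 CPM in untreated libraries. Zbtb46, a transcription factor of classical dendritic cells, was at 21.7, 20.1 and 25.6 CPM in TBI libraries, against 55.9 and 51.2 CPM in untreated libraries. Both were thus low but detected in every TBI library. The 7 genes summed to 37317 to 53381 CPM in TBI libraries and to 54679 and 55600 CPM in untreated libraries, and most of that sum was Cd74, H2-Ab1 and H2-Aa, genes of MHC class II presentation that B cells and macrophages carry as well. The leukocyte antigen CD45 (Ptprc) was at 866 to 969 CPM in TBI libraries and at 986 and 1007 CPM in untreated libraries, and did not pass the test.

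The genes were read in 3 classes, chosen with earlier results of these data known. The double-positive class holds 9 genes of immature and double-positive thymocytes, the mature class 9 genes of surface receptors, adaptors and a transcription factor that mature T cells carry, and the shared class 15 genes that both stages use. Counts were tested with edgeR's quasi-likelihood test over 12046 genes, with Benjamini-Hochberg adjustment and a threshold of 0.05. CPM values are scaled by TMM (trimmed mean of M-values), and each log2 fold change is TBI minus untreated with its standard error.

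Over the whole set 16 of 33 genes (48.5%) were lower after TBI and 3 (9.09%) higher, beside 9.79% lower and 13.3% higher among all tested genes. Most of the double-positive genes fell, while the mature and shared classes were mixed. In the double-positive class 8 of 9 genes were lower and 0 were higher, and the class had a median log2 fold change of -1.50. In the mature class 3 of 9 were lower and 1 was higher (median -0.10), and in the shared class 5 of 15 were lower and 2 were higher (median 0.005). Whether the classes differ was not tested. The TBI and untreated libraries did not overlap for 25 of the 33 genes, beside 56.1% of all tested genes. The median over all tested genes was -0.01, and it moved to -0.23 when libraries were scaled by their size alone. Under that scaling the shared median was -0.225, so the sign of the shared median is not fixed, while the double-positive median was -1.72 and the mature median -0.33. In bulk RNA, fewer cells of a type and less RNA per cell cannot be told apart.

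**Figure D1:**
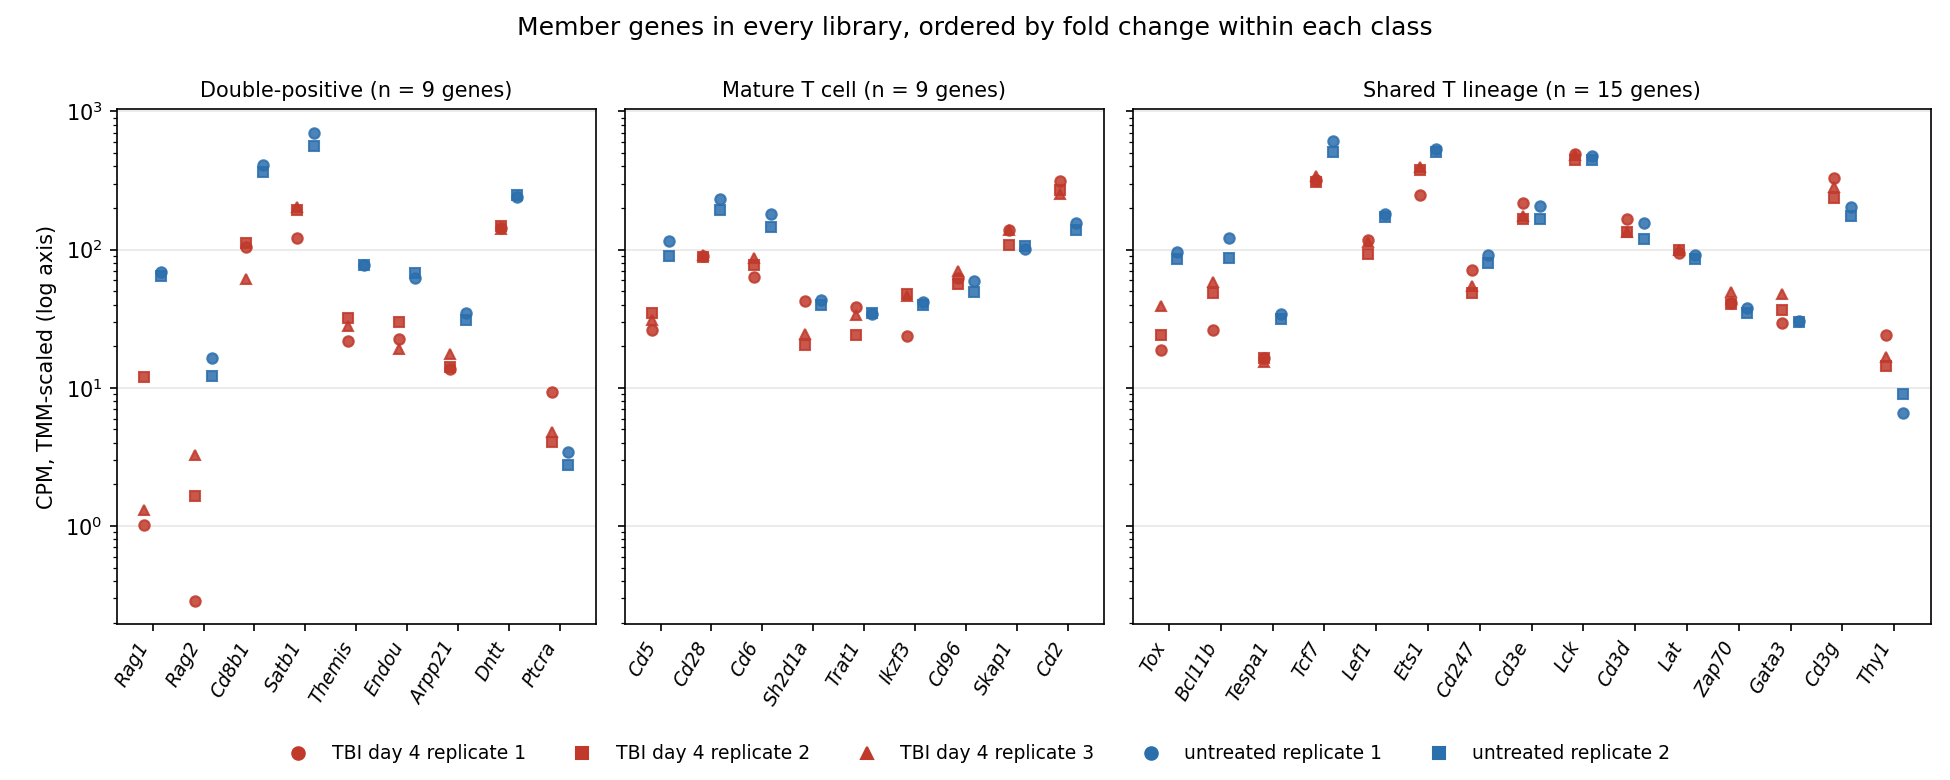
Level of each of the 33 genes in every library, in TMM-scaled CPM on a log axis, with 3 TBI libraries in red and 2 untreated libraries in blue and genes ordered by fold change within each class. The red points lie below the blue ones for 8 of 9 double-positive genes, and Rag1 and Rag2 have the widest spread among TBI libraries.

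**Figure D2:**
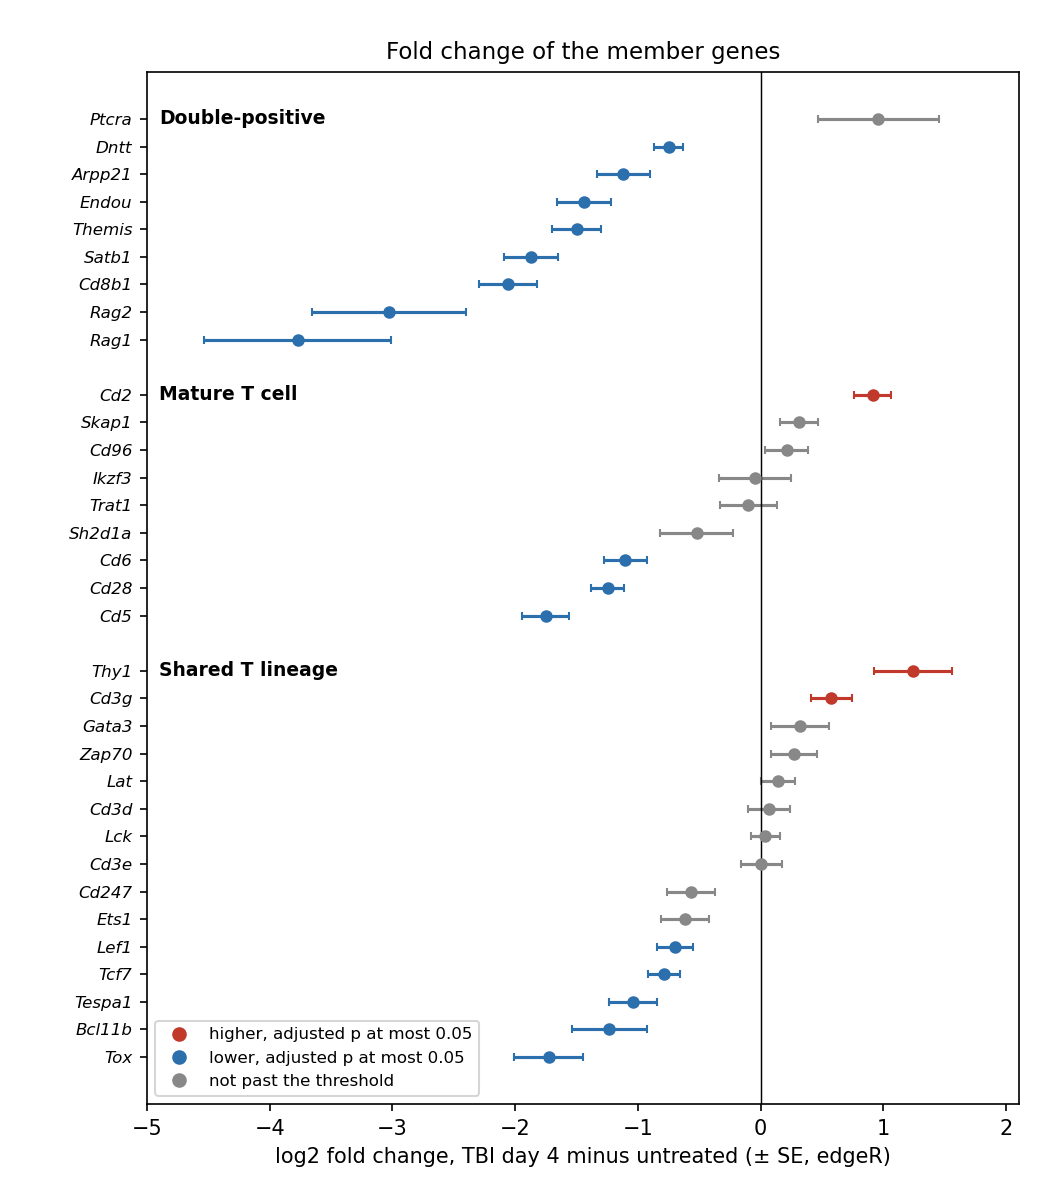
Log2 fold change of each gene, TBI minus untreated, with its standard error from edgeR, coloured by whether the adjusted p reached 0.05. In the double-positive class 8 of 9 genes lie left of zero, and in the mature and shared classes genes lie on both sides.

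Rag1 and Rag2 encode the 2 subunits of the recombinase that cuts antigen receptor genes, and they were the lowest after TBI. They are neighbours on chromosome 2 in GRCm38 (the build also called mm10), Rag1 at 101638282 to 101649501 on the minus strand and Rag2 at 101624718 to 101632529 on the plus strand, with 5752 bases between them. Rag1 had 7, 95 and 10 counts in TBI replicates 1, 2 and 3, against 559 and 509 counts in untreated replicates 1 and 2. TBI replicate 2 was thus far above the other TBI libraries and still well below both untreated libraries. Its mean was 4.78 ± 6.28 CPM in TBI libraries and 66.7 ± 3.28 CPM in untreated libraries (SD over 3 and 2 libraries). On the log2 scale the change was -3.77 ± 0.76 (standard error; edgeR adjusted p = 0.00873). Without TBI replicate 2 the log2 fold change was -5.82 (edgeR adjusted p = 1.94e-04). Rag2 had 2, 13 and 25 counts in the TBI libraries, against 134 and 97 counts in the untreated libraries. Here TBI replicate 3, not replicate 2, was highest, and the groups again did not overlap. Its means were 1.73 ± 1.49 CPM after TBI and 14.4 ± 3.02 CPM without treatment, a log2 fold change of -3.03 ± 0.63 (edgeR adjusted p = 0.00980). Without TBI replicate 3 it was -3.83, and without untreated replicate 1 it was -2.80 and did not pass (edgeR adjusted p = 0.0813).

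Pre-T cell receptor α (Ptcra), the invariant partner of the receptor β chain in precursors, was the only one of the 9 double-positive genes with a positive fold change. It had 65, 32 and 37 counts in the TBI libraries, against 28 and 22 counts in the untreated libraries. All 3 TBI libraries were above both untreated ones, TBI replicate 1 by the most, yet at these low counts the difference did not pass (log2 fold change 0.96 ± 0.49; edgeR adjusted p = 0.206). Terminal transferase (Dntt), which adds bases at receptor gene joints, was far more abundant and fell least among the 8. It was at 143, 149 and 142 CPM in the TBI libraries, against 238 and 249 CPM in the untreated libraries, with almost no spread within either group. Its log2 fold change was -0.75 ± 0.12 (edgeR adjusted p = 0.00272).

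The 250 bases before the start sites of the recombinase genes and of Ptcra are shown because these genes lie at the opposite ends of the fold changes of the class. They come from RefSeq on GRCm38.p6, and capitals mark matches to the E-box CANNTG, a motif read by basic helix-loop-helix factors such as the E proteins of thymocytes. The Rag1 window is chr2:101649533-101649782 on the minus strand, the Rag2 window chr2:101624462-101624711 on the plus strand, and the Ptcra window chr17:46763713-46763962 on the minus strand.
Rag1: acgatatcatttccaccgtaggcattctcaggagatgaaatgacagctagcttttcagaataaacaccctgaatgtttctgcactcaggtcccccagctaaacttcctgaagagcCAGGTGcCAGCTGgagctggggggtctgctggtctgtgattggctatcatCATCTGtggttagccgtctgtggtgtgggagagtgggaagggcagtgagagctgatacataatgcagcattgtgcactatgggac
Rag2: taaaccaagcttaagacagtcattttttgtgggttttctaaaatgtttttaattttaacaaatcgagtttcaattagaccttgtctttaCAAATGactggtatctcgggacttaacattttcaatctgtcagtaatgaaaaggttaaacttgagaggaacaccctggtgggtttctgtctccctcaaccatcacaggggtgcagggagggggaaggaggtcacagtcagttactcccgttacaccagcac
Ptcra: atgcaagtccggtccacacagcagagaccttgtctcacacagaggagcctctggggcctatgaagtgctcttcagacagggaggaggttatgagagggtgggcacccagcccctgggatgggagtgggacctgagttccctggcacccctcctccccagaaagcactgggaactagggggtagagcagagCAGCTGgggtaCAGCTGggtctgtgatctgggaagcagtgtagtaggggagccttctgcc
The Rag1 window held 3 E-boxes, of which 1 overlapped a match to the RUNX motif TGTGGT, the Rag2 window held 1 and the Ptcra window 2. RUNX letters occurred 2 times in the Rag1 window, and the TCF/LEF motif CTTTGA in none of the 3 windows. Both strands were searched. An E-box is common: 66.0% of 27025 genes had one in the window of the same length, as did 15 of the 21 genes of the set that the table covers. Of those 21, 4 had TCF/LEF letters and 5 had RUNX letters, beside 3797 and 3832 of the 27025 genes. These matches describe the letters in the windows, and binding was not measured.

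The other double-positive genes lay between Dntt and the recombinase. Cd8b1, the CD8 β chain, which pairs with CD8 α on double-positive and CD8 T cells, was at 105, 111 and 61.0 CPM in the TBI libraries, against 407 and 364 CPM in the untreated libraries. No TBI library came near the untreated level, and replicate 3 was the lowest. Its log2 fold change was -2.06 ± 0.24 (edgeR adjusted p = 4.68e-04). Satb1, a chromatin organiser needed for thymocyte development, was at 121, 194 and 202 CPM after TBI, against 703 and 562 CPM without treatment. TBI replicate 1 was lowest here, and the change was -1.87 ± 0.22 (edgeR adjusted p = 5.43e-04). Themis, a signalling protein of positive selection, was at 21.7, 32.2 and 28.2 CPM after TBI, against 77.0 and 77.9 CPM without treatment (-1.50 ± 0.20; edgeR adjusted p = 0.00104). Its untreated values were nearly equal, and every TBI value was far below either. The endonuclease gene Endou was at 22.7, 30.1 and 19.1 CPM, against 62.1 and 68.0 CPM (-1.44 ± 0.22; edgeR adjusted p = 0.00214). Arpp21, which encodes a cyclic AMP-regulated phosphoprotein, was at 13.6, 14.1 and 17.5 CPM, against 34.6 and 30.8 CPM (-1.12 ± 0.21; edgeR adjusted p = 0.00654). Neither gene had overlapping groups. Arpp21 did not pass without untreated replicate 1 (edgeR adjusted p = 0.0948) or untreated replicate 2 (0.0520), nor did Dntt without untreated replicate 2 (0.0614).

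The CD3 chains carry the signal of the T cell receptor into the cell and mark thymocytes and mature T cells alike. Which cells of the sort carried their transcripts, or those of the signalling genes below, was not measured. Of the 4 chains, 1 rose and 0 fell by the test. Cd3e was at 219, 166 and 174 CPM in TBI libraries and at 206 and 166 CPM in untreated libraries. Cd3d was at 166, 133 and 133 CPM in TBI libraries and at 156 and 119 CPM in untreated libraries. For both the groups overlapped, and the log2 fold changes of 0.005 ± 0.17 and 0.07 ± 0.17 did not pass (edgeR adjusted p = 0.988 and 0.813). Both were below zero when scaled by library size alone (-0.225 and -0.16). Cd3g was at 328, 237 and 284 CPM in TBI libraries and at 204 and 176 CPM in untreated libraries. Every TBI library was above both untreated ones, and Cd3g rose by 0.57 ± 0.17 on the log2 scale (edgeR adjusted p = 0.0394). This call was marginal: it did not pass with scaling by library size alone (edgeR adjusted p = 0.147) or upper quartile (0.0540), nor without untreated replicate 1 (0.135), untreated replicate 2 (0.315) or TBI replicate 3 (0.0785). Cd247, the ζ chain, was at 70.7, 48.7 and 54.2 CPM in TBI libraries and at 91.7 and 79.9 CPM in untreated libraries. The groups did not overlap, and the log2 fold change of -0.57 ± 0.19 did not pass (edgeR adjusted p = 0.0680). It passed without TBI replicate 1 (0.00246), with library size alone (0.0164) and with DESeq2 (0.0411). Exons of Pou2f1 on the opposite strand cover 56.4% of the annotated exon length of Cd247. The strand setting of the counting is not given in the sources used here. Whether reads of Pou2f1 from that shared part entered the Cd247 counts is therefore not known.

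Cd3g and Cd3d stand head to head on chromosome 9, Cd3g at 44969572 to 44980431 on the minus strand and Cd3d at 44981786 to 44987339 on the plus strand, with start sites 1355 bases apart. Their windows are shown because they look into one shared stretch of DNA while only Cd3g of the pair was called. Capitals again mark CANNTG. The Cd3g window is chr9:44980432-44980681 on the minus strand, and the Cd3d window chr9:44981536-44981785 on the plus strand.
Cd3g: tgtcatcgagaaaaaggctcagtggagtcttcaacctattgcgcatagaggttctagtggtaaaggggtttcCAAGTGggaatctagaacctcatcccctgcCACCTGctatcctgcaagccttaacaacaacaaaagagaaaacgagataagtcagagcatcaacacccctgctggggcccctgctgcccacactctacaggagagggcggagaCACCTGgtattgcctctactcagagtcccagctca
Cd3d: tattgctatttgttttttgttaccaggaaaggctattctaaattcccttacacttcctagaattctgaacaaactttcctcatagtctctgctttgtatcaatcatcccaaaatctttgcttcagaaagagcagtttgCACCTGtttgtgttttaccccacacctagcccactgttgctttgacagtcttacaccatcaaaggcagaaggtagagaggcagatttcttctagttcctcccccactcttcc
The Cd3g window held 3 E-boxes and no TCF/LEF or RUNX letters, and the Cd3d window held 1 E-box and 2 TCF/LEF matches. Whether the fold changes of Cd3g and Cd3d differ was not tested.

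Of the enzymes and adaptors that relay the signal from the CD3 chains, most showed no difference past the threshold. Lck, the kinase that starts the signal, was at 491, 448 and 486 CPM in TBI libraries and at 477 and 449 CPM in untreated libraries, with overlapping groups and a log2 fold change of 0.04 ± 0.12. Zap70, the kinase that Lck activates, had 0.27 ± 0.19, and Lat, the scaffold that Zap70 phosphorylates, 0.14 ± 0.14. The adaptors Skap1 (0.31 ± 0.16), Trat1 (-0.10 ± 0.23) and Sh2d1a (-0.52 ± 0.30) did not pass either, and edgeR adjusted p-values of these 6 genes ran from 0.198 to 0.854. With library size alone Lck (-0.19) and Lat (-0.085) were below zero, and so was Lck with upper quartile scaling (-0.007). Sh2d1a passed when TBI replicate 1, its highest TBI library, was left out (log2 fold change -0.89; edgeR adjusted p = 0.00499), and exons of Tenm1 on the opposite strand cover 26.6% of its exon length. Tespa1, a protein of thymocyte positive selection, was the exception besides Themis. It was at 16.3, 16.5 and 15.4 CPM after TBI, against 34.4 and 31.7 CPM without treatment (-1.04 ± 0.19; edgeR adjusted p = 0.00573). The TBI values were nearly equal and well below both untreated ones, though the call was lost without untreated replicate 1 (0.0948) or untreated replicate 2 (0.0617).

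Surface receptors of T cells moved in both directions. Cd2, an adhesion receptor of T and natural killer cells, was at 314, 270 and 252 CPM in TBI libraries, against 157 and 139 CPM in untreated libraries. It rose in all 3 libraries, by 0.91 ± 0.15 on the log2 scale (edgeR adjusted p = 0.00292), with an adjusted p of 0.0569 without untreated replicate 2. Thy1, a surface glycoprotein of mouse T cells and innate lymphoid cells, had 167, 113 and 128 counts in the TBI libraries, against 53 and 71 counts in the untreated libraries. It rose by 1.24 ± 0.32 (edgeR adjusted p = 0.0237) from a low level, and the call was lost without untreated replicate 1 (0.213) or untreated replicate 2 (0.0850). Cd5, an inhibitory receptor whose level follows the strength of T cell receptor signalling, went the other way. It had 180, 273 and 237 counts after TBI, against 937 and 713 counts without treatment (-1.75 ± 0.19; edgeR adjusted p = 3.39e-04). Its relative Cd6 was at 63.2, 77.9 and 87.4 CPM, against 182 and 145 CPM (-1.10 ± 0.18; edgeR adjusted p = 0.00283). The costimulatory receptor Cd28 was at 90.0, 88.1 and 91.2 CPM, against 232 and 194 CPM (-1.25 ± 0.13; edgeR adjusted p = 3.22e-04). These 3 falls kept apart from the untreated range in every TBI library. Cd96, a receptor of T and natural killer cells, was at 56.8 to 70.3 CPM in TBI libraries and at 49.7 and 59.4 CPM in untreated libraries and did not pass.

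Of 8 transcription factors in the set, counting Satb1, 5 fell and 0 rose. Tcf7, which encodes TCF-1, the factor that sets the T cell programme, was at 321, 309 and 342 CPM in TBI libraries, against 609 and 510 CPM in untreated libraries (-0.79 ± 0.13; edgeR adjusted p = 0.00306). Its partner Lef1 was at 118, 92.8 and 113 CPM, against 180 and 172 CPM (-0.70 ± 0.15; edgeR adjusted p = 0.0104). In both the TBI libraries agreed closely and lay below the untreated ones. Bcl11b, which fixes T cell commitment, had 180, 382 and 445 counts after TBI, against 979 and 689 counts without treatment (-1.23 ± 0.31; edgeR adjusted p = 0.0220). Tox, needed for the CD4 lineage and for innate lymphoid cells, was at 18.9, 24.1 and 39.2 CPM, against 95.8 and 85.8 CPM (-1.73 ± 0.28; edgeR adjusted p = 0.00291). Bcl11b and Tox, like Satb1, were lowest in TBI replicate 1. The same library was lowest for Ets1, a factor of lymphoid cells, at 250, 375 and 398 CPM in TBI libraries, against 536 and 512 CPM in untreated libraries. Ets1 had -0.62 ± 0.19 and missed the threshold (edgeR adjusted p = 0.0519), and it passed in several alternatives, such as without TBI replicate 1 (0.00568) and with limma-voom (0.0365). Ikzf3, which encodes Aiolos, was at 23.7, 47.6 and 46.5 CPM after TBI, against 41.5 and 39.7 CPM without treatment (-0.05 ± 0.29). Gata3, the factor of CD4 T cells and of type 2 innate lymphoid cells, was at 29.6, 36.3 and 47.4 CPM, against 30.6 and 30.0 CPM (0.32 ± 0.23). Neither passed, and for both the groups overlapped. Without untreated replicate 1, edgeR adjusted p-values were 0.0666 for Tcf7, 0.120 for Lef1 and 0.174 for Bcl11b, and Lef1 had 0.0886 without untreated replicate 2 and Bcl11b 0.0629 without TBI replicate 2.

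Levels per length show which of these transcripts were abundant. Given as CPM per kilobase of merged exon (RPKM), Cd8b1 averaged 62.4 RPKM in TBI libraries and 260.0 RPKM in untreated libraries, where it was the highest of the set. In TBI libraries the highest level was that of Lck (162 RPKM, against 158 RPKM in untreated libraries), followed by Cd2 (160.2 RPKM, against 85.1 RPKM) and Tcf7 (124 RPKM, against 213 RPKM). The lowest in TBI libraries was Rag2 (0.506 RPKM, against 4.21 RPKM in untreated libraries). The lowest in untreated libraries was Arpp21 (1.88 RPKM, against 0.863 RPKM in TBI libraries). Together the 33 genes took 0.316%, 0.315% and 0.344% of all counts in the TBI libraries, against 0.602% and 0.527% in the untreated libraries. The double-positive genes alone took 0.0401% to 0.0514%, against 0.178% and 0.157%, and the mature genes 0.0683% to 0.0748%, against 0.107% and 0.0918%. In both classes every TBI library was below both untreated ones.

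The summed double-positive counts were also lower relative to the CD3 chains of the same library. For each count of Cd3d, Cd3e and Cd3g summed, the 9 double-positive genes had 0.614, 1.02 and 0.810 counts in the TBI libraries, against 2.85 and 3.10 counts in the untreated libraries. Satb1, Cd8b1 and Dntt together held most of the double-positive counts in every library, so this ratio mainly follows them. The 9 mature genes had 1.12, 1.36 and 1.31 counts, against 1.71 and 1.82 counts. Cd2, which rose, was the largest part of the mature sum in the TBI libraries, with 2174, 2135 and 1931 counts. In the untreated libraries the largest part was Cd28, with 1878 and 1537 counts, beside 1272 and 1103 counts of Cd2. Per 1000 such CD3 counts there were 147, 208 and 103 counts of Cd8b1 after TBI, against 720 and 788 without treatment, while Cd2 had 441, 504 and 426, against 278 and 302. Rag1 had 1.42, 22.4 and 2.21 counts per 1000 CD3 counts after TBI, against 122 and 139 without treatment. Ptcra went against the sum, with 65, 32 and 37 counts beside 4933, 4236 and 4534 CD3 counts in the TBI libraries, against 28 and 22 counts beside 4583 and 3649 CD3 counts in the untreated libraries, a higher ratio in every TBI library. These ratios do not depend on how libraries are scaled. They compare sums of genes of different lengths and are given as a description. Which cells of the sort carried the CD3 counts was not measured, so the ratios are not values per T cell.

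**Figure D3:**
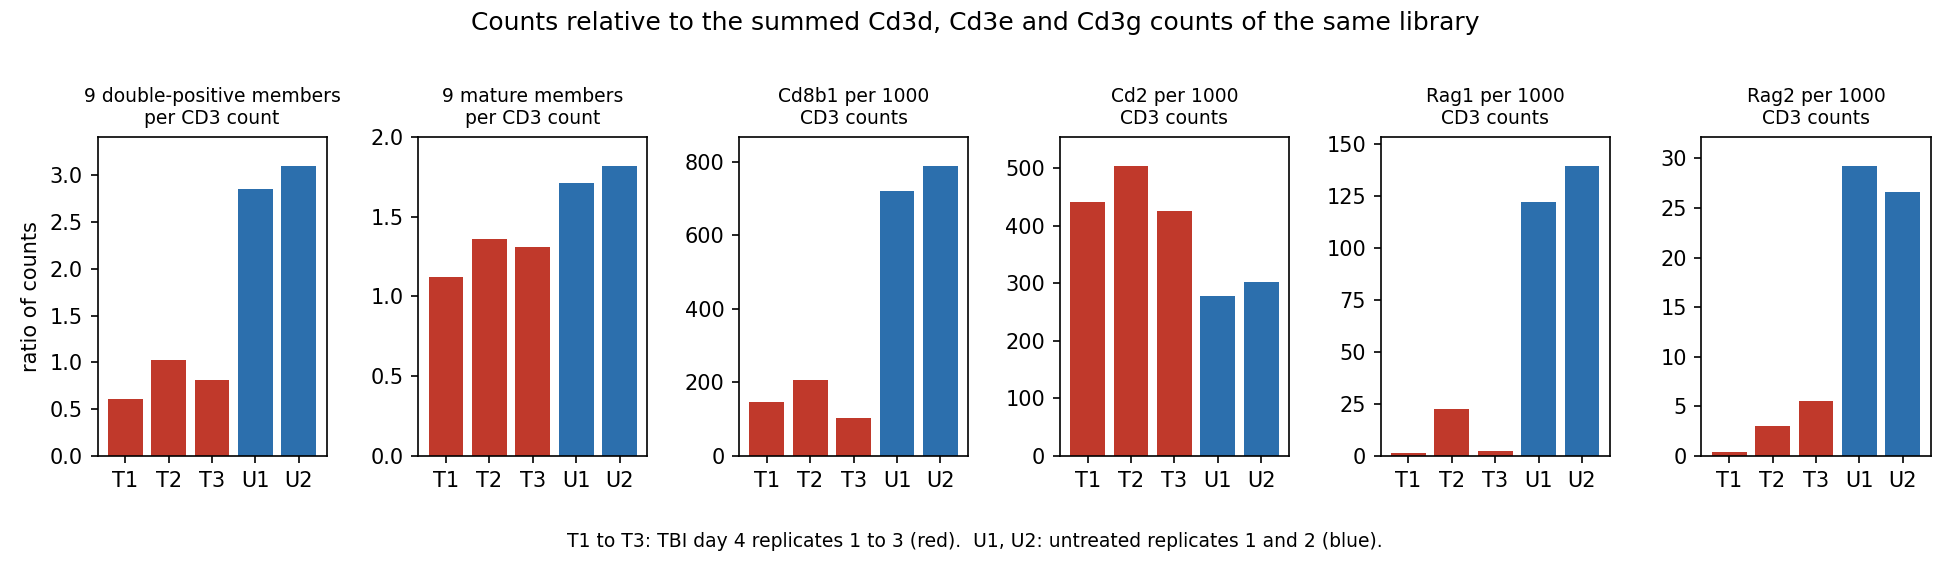
Counts divided by the summed Cd3d, Cd3e and Cd3g counts of the same library, as bars from 0, for the double-positive genes, the mature genes, Cd8b1, Cd2, Rag1 and Rag2, with TBI libraries in red and untreated libraries in blue. The double-positive bars reach 0.614 to 1.02 in TBI libraries and 2.85 and 3.10 in untreated libraries, and Cd2 is the panel in which the TBI bars are the higher ones.

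Other genes of the T lineage, outside the set, were read from a list of 51. Of these, 44 had a row and were tested: 13 rose, 14 fell and 17 passed in neither direction, and the median log2 fold change was -0.08. That is 29.5% higher and 31.8% lower, beside the shares of 13.3% and 9.79% among all tested genes. The 7 constant region genes of the T cell receptors, which would show rearranged receptor transcripts directly, were not matched by symbol and are not analysed here.

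The genes that fell included the coreceptors of double-positive thymocytes. Cd4 had a log2 fold change of -2.19 ± 0.19 and Cd8a of -2.54 ± 0.23, and both are also carried by dendritic cells, Cd8a by type 1 cells. Ccr9, a chemokine receptor of thymocytes and plasmacytoid dendritic cells, had 75, 448 and 155 counts after TBI, against 5512 and 5137 counts without treatment (-4.50 ± 0.54). Rmnd5a (-2.08 ± 0.27), Aqp11 (-1.10 ± 0.28), the activation antigen Cd69 (-1.48 ± 0.24), the kinase Fyn (-1.17 ± 0.16), the adaptor Sit1 (-1.19 ± 0.27), the costimulatory receptor Cd27 (-1.03 ± 0.19), the signalling factor Rasgrp1 (-0.92 ± 0.27) and the transcription factors Runx3 (-0.97 ± 0.19) and Ikzf1 (-0.82 ± 0.20) fell as well. Sit1 and Runx3 did not pass without untreated replicate 1 (edgeR adjusted p = 0.109 and 0.0669) or untreated replicate 2 (0.0876 and 0.0708), and Cd27 did not without untreated replicate 1 (0.0781). Rasgrp1 and Aqp11 passed only with TBI replicate 1 left out or with all 5 libraries, and their adjusted p reached 0.234 and 0.175 without untreated replicate 1, 0.108 and 0.101 without untreated replicate 2, 0.0662 and 0.0734 without TBI replicate 2 and 0.0633 and 0.0654 without TBI replicate 3. Ikzf1 did not pass without untreated replicate 1 (0.117), untreated replicate 2 (0.138) or TBI replicate 2 (0.0834).

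The 13 that rose included receptors of activated lymphocytes. Cd226, an activating receptor of natural killer and T cells, had 1004, 1199 and 1052 counts in the TBI libraries, against 34 and 81 counts in the untreated libraries (4.33 ± 0.33). The interleukin-2 receptor chains Il2rb (3.96 ± 0.25) and Il2ra (2.82 ± 0.19), the sphingosine-phosphate receptor S1pr1 (3.73 ± 0.22), by which mature T cells leave the thymus, and the GTPases Gimap3 (2.69 ± 0.18) and Gimap4 (2.34 ± 0.16) rose with it. Ctla4, an inhibitory receptor of activated and regulatory T cells, had 1092, 979 and 946 counts, against 222 and 290 counts (2.08 ± 0.20), and the costimulator Icos 806, 759 and 826 counts, against 282 and 262 counts (1.65 ± 0.16). Foxp3, the factor of regulatory T cells, had only 37, 30 and 49 counts, against 14 and 8 counts. Its rise of 1.90 ± 0.54 (edgeR adjusted p = 0.0347) was lost without untreated replicate 1 (0.137), untreated replicate 2 (0.296) or TBI replicate 3 (0.0811). Cd40lg (1.19 ± 0.36; edgeR adjusted p = 0.0438) was lost without untreated replicate 1 (0.275), untreated replicate 2 (0.220), TBI replicate 1 (0.0546) or TBI replicate 2 (0.0588). The Notch targets Dtx1 (3.88 ± 0.30) and Hes1 (1.68 ± 0.32), and the adaptor Lcp2 (0.78 ± 0.17), were higher as well. Hes1 did not pass without untreated replicate 1 (0.0712) and Lcp2 did not without untreated replicate 2 (0.151). Among the genes that did not pass, abundant ones were Ccr7, Klf2, Gimap6, Fyb and Ptpn22.

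Markers of other cell types in the sort changed as well, in both directions. Of 14 natural killer and innate lymphoid genes 12 were higher and 0 lower, and their summed level was 1212 to 1568 CPM in TBI libraries, against 184 and 186 CPM in untreated libraries. All 12 plasmacytoid dendritic cell genes were lower, at a summed 454, 587 and 487 CPM in TBI replicates 1, 2 and 3, against 3713 and 3642 CPM in untreated libraries. All 9 type 1 dendritic cell genes were lower, at 1442, 1636 and 1448 CPM, against 6051 and 6432 CPM. The double-positive genes summed to 437, 549 and 480 CPM in TBI libraries, against 1611 and 1431 CPM in untreated libraries. The mature genes summed to 799, 728 and 776 CPM, against 967 and 839 CPM, and the shared genes to 2215, 2089 and 2312 CPM, against 2876 and 2549 CPM. The double-positive, mature, shared, plasmacytoid and type 1 sums were lower in every TBI library than in both untreated ones. All 10 macrophage genes were higher, at 23111 to 25343 CPM, against 2680 and 3253 CPM. Of 8 B cell genes 7 were tested, of which 5 were higher and 0 lower, at 404, 418 and 260 CPM, against 108 and 87.6 CPM. Among the TBI libraries the plasmacytoid, type 1, B cell and double-positive sums were all highest in replicate 2. The mature, shared and natural killer sums were lowest in that library, and the macrophage sum was highest in replicate 3. Not every double-positive gene followed the sum of its class: Rag2, Satb1 and Arpp21 were highest in TBI replicate 3 and Ptcra in TBI replicate 1. No gene of the natural killer, plasmacytoid, type 1 or macrophage lists was at 0 counts in any library. Of the B cell genes, Fcer2a had 0, 14 and 12 counts in the TBI libraries, against 63 and 51 counts in the untreated libraries. It did not pass (edgeR adjusted p = 0.0549). Pax5, the gene of that list not tested, had 4, 2 and 1 counts in the TBI libraries and 0 in both untreated libraries. Ccr9 stands on both the plasmacytoid list and the list of other T lineage genes. The part of these cell types in the changes of Cd2, Thy1, Rag1, Dntt and the other genes was not tested.

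**Figure D4:**
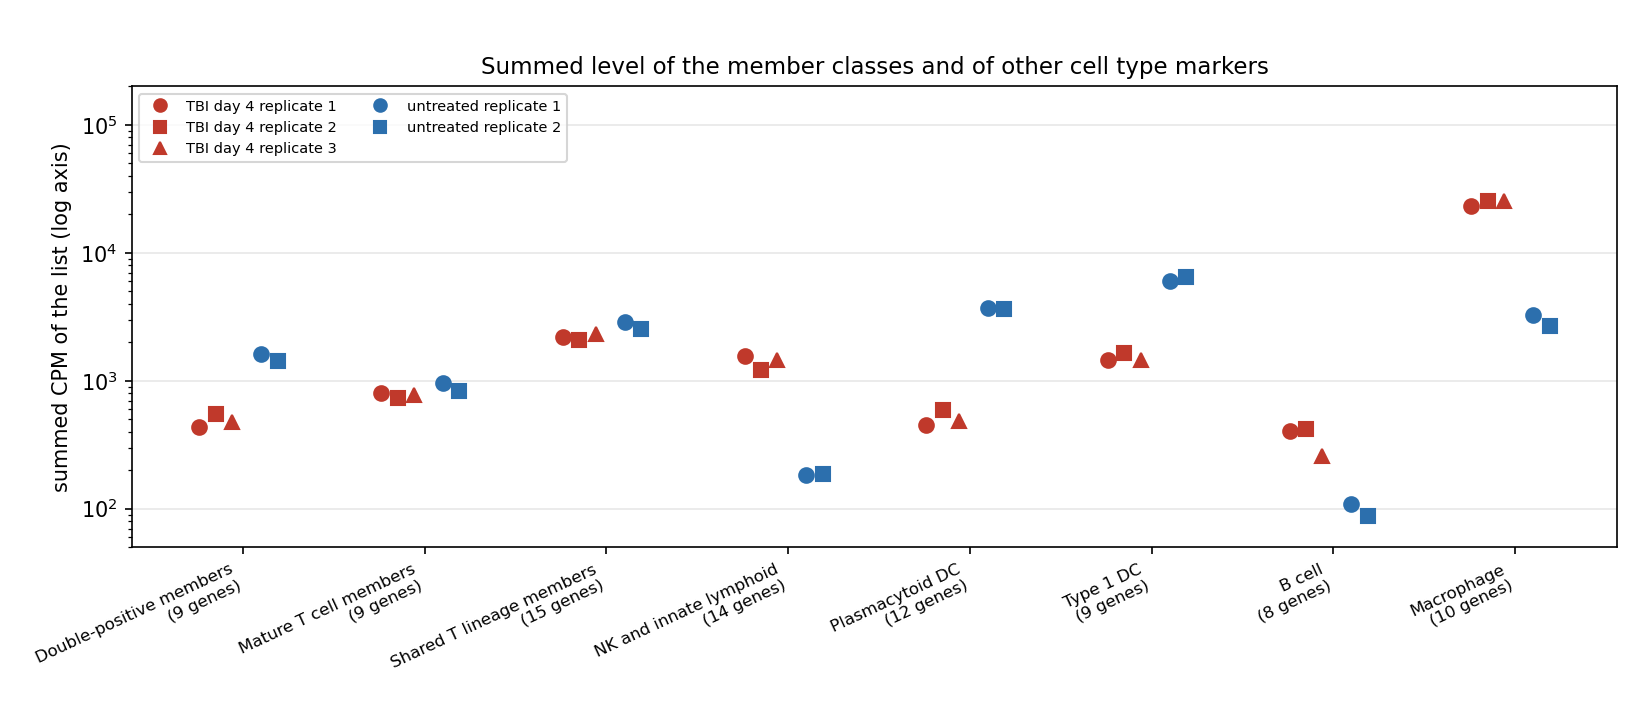
Summed TMM-scaled CPM of the 3 classes and of 5 lists of other cell type markers in every library, on a log axis, with TBI libraries in red and untreated libraries in blue. The sums of all 3 classes and of the plasmacytoid and type 1 dendritic cell lists are lower in every TBI library than in both untreated ones, and the natural killer, B cell and macrophage sums are higher.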

How the data were processed

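The 33 genes, the 3 classes and all marker lists were chosen with earlier results of these data known, from textbook knowledge. The submitters' processing notes name STAR 2.5.2a, featureCounts 1.6.0 of Subread and the build mm10. The authors deposited raw counts, whole numbers of reads for each gene symbol. The SMART-Seq v4 kit amplifies RNA by PCR without molecular identifiers, so 1 count is not 1 molecule. The annotation and the handling of reads in overlapping genes are not given in the sources used here. One treatment note carries a different day in a sample name. Day 4 was taken from the titles and the tag. The table held 18051 rows, 23 with date-like symbols (none in the set), and 0 columns of other samples.

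The test was that of edgeR 4.0.16 (R 4.3.3), with TMM, filterByExpr (minimum count 10, minimum total 15), quasi-likelihood F-test, robust = FALSE, group as the only term. Standard errors are the log2 fold change over the root of F. Scripts were tested on simulated data. RPKM used merged exons of a GRCm38 annotation, in which 14 of the 33 genes share exon bases with another gene. Every gene of the set is named, with values in every library where it passed. From the list of 51, the rule names those that passed and the 6 most abundant others, and some of them are not reported here. Alternatives were DESeq2 size factors, upper quartile, library size alone, no filter, a stricter filter (1 CPM in 3 libraries, total 100), DESeq2 1.42.0, limma-voom 3.58.1, robust shrinkage, a replicate block and each library left out. Figures used matplotlib 3.10.9.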

Additional observations from a re-analysis of the deposited data

How the results depend on the processing

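The direction and call of the 8 falling double-positive genes held in each of the 9 alternatives that kept all libraries. With library size alone, 2129 genes over the whole table were lower and 1241 higher, the shared class had a median log2 fold change of -0.225, and it had 1 higher gene, as it did with upper quartile scaling. With 1 library left out, all-gene calls ran from 810 to 2148 higher and from 423 to 1780 lower, calls of the set from 0 to 3 higher and from 10 to 19 lower, double-positive calls from 6 to 8 lower, mature calls from 0 to 1 higher, shared calls from 0 to 2 higher and from 1 to 7 lower, the shared median from -0.143 to 0.082, and other T lineage calls from 8 to 16 lower. Leaving out an untreated library leaves 1, assumed to vary like the TBI libraries. Signs turned for genes that had not passed. With library size alone these were Cd96 (-0.011), Cd3d (-0.16), Cd3e (-0.225), Lck (-0.19) and Lat (-0.085). Cd3e was at -0.001 with DESeq2 size factors, the DESeq2 test and limma-voom, at -0.002 without the filter and at -0.038 with upper quartile scaling, where Lck had -0.007. With a library left out, Trat1 ran from -0.254 to 0.067, Ikzf3 from -0.21 to 0.21, Cd3d from -0.11 to 0.27, Cd3e from -0.143 to 0.17 and Lck from -0.007 to 0.08. Foxp3 and Cd40lg did not pass with limma-voom (adjusted p = 0.0604 and 0.0623), nor did Cd40lg with upper quartile scaling (0.0508), library size alone (0.0742) or no filter (0.0564). The cause was not tested. The labels number replicates in both groups, but the difference between replicates 1 and 2 correlated across genes at -0.01 between groups, so the numbers were not used as pairs. With the replicate block 3 genes of the set were higher and 17 lower, Ets1 passed (adjusted p = 0.0161) and Foxp3 did not (0.0801).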
